A study of Mus musculus with 4 samples.

Results

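The collagen chain genes were the genes whose symbol on the array reads Col, a type number, the letter a and a chain number, taken from all probes that are not controls. The rule used names only and no measured value. It found 44 genes, read by 91 probes in 109 spots, among 27195 genes and 56605 probes in all. They were split into 11 chains of fibrillar collagens, the 6 chains of type IV (the basement membrane collagen) and 27 other chains.

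Lung RNA of C57BL/6J mice was hybridised to 4 one-colour Agilent arrays, 1 array a group, each with RNA pooled from 5 mice and labelled with the time 3 weeks. The groups were sham/PBS (sham-operated mice given inhaled saline), sham/PPE (sham-operated mice given inhaled PPE), ORX/PBS and ORX/PPE (the same agents after ORX). PPE was read as porcine pancreatic elastase and ORX as removal of the testes, since the study's title speaks of emphysema from elastase and of testosterone deficiency. All groups shared the strain and the tissue, and the labels used here give no age. A pool averages its 5 mice on 1 array, so nothing here measures the spread between mice, and each difference between 2 arrays is a value with no replicate check.

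Collagens are proteins, most of them secreted and some membrane-bound, whose chains carry glycine at a fixed step and wind 3 together into a triple helix. Types I and III form the stiff fibrils of lung septa, airways and vessels, with type V inside them setting the fibril diameter, while type IV forms the sheet-like network under epithelium and endothelium. Elastase given to the airways is a standard way to produce emphysema in rodents, in which septa are lost and the remaining matrix is remodelled.

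The repeat that defines the family can be read in some of the array's own 60-base probes. A glycine codon is GGN, so a stretch that codes for triple helix has GG every 9 bases. Of the 91 collagen probes, 7 (7.69%) held a run of at least 4 such codons in a frame with no stop codon, against 21 of the 56514 other probes (0.0372%). The 7 are shown because they lie in coding sequence for the helix itself, and because those of Col14a1, Col15a1 and Col22a1 gave these genes' values below. Capitals mark the glycine codons in phase.
Col5a3 (chr9:20590066-20590795, minus strand): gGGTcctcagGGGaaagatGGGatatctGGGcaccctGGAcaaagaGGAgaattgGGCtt
Col6a3 (chr1:92689602-92690594, minus strand): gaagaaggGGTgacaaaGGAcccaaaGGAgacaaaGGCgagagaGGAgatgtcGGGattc
Col11a2 (chr17:34189287-34189453, plus strand): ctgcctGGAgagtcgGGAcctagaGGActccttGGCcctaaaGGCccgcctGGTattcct
Col14a1 (chr15:55347733-55347792, plus strand): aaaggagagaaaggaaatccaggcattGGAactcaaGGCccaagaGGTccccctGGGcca
Col15a1 (chr4:47283786-47283845, plus strand): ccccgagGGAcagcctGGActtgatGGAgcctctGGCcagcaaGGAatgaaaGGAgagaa
Col16a1 (chr4:129756457-129756516, plus strand): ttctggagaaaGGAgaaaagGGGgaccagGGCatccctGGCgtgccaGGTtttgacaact
Col22a1 (chr15:71767749-71768433, minus strand): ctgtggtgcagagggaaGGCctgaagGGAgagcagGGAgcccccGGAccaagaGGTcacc
Positions refer to mm9, the build the array files use. The probes of Col5a3, Col6a3, Col11a2 and Col22a1 map over 730, 993, 167 and 685 bases, so their 60 letters are split over the genome, while the other 3 lie in 1 stretch. The Col5a3 probe, with 7 glycine codons in a row, was not well above background on any array, and that gene was read from another probe.

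The 4 arrays were on 1 slide, and 0 spots were saturated. Of all genes, 20132 to 20912 were well above background on an array, the scanner software's mark for a spot brighter than its surroundings. Of the 44 collagen genes, 38 were well above background on all 4 arrays and 4 (Col6a6, Col10a1, Col24a1 and Col25a1) on none. Col9a1 and Col19a1 were dim on sham/PPE alone, so for them comparisons with that array give only a bound. A level here is the log2 of the processed signal over the array's 75th percentile, from each gene's brightest probe, and levels are set against each other within a gene only. Where 1 probe was spotted 10 times, the SD over its spots was typically 0.0363 or less, which makes 0.0514 for a difference between 2 arrays. That is the scatter of spots and not of mice. All 7 markers of alveolar type 2 cells, surfactant genes among them, were measured on every array. So were all 10 heart muscle markers, so being measured does not by itself establish the tissue.

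**Figure D1:**
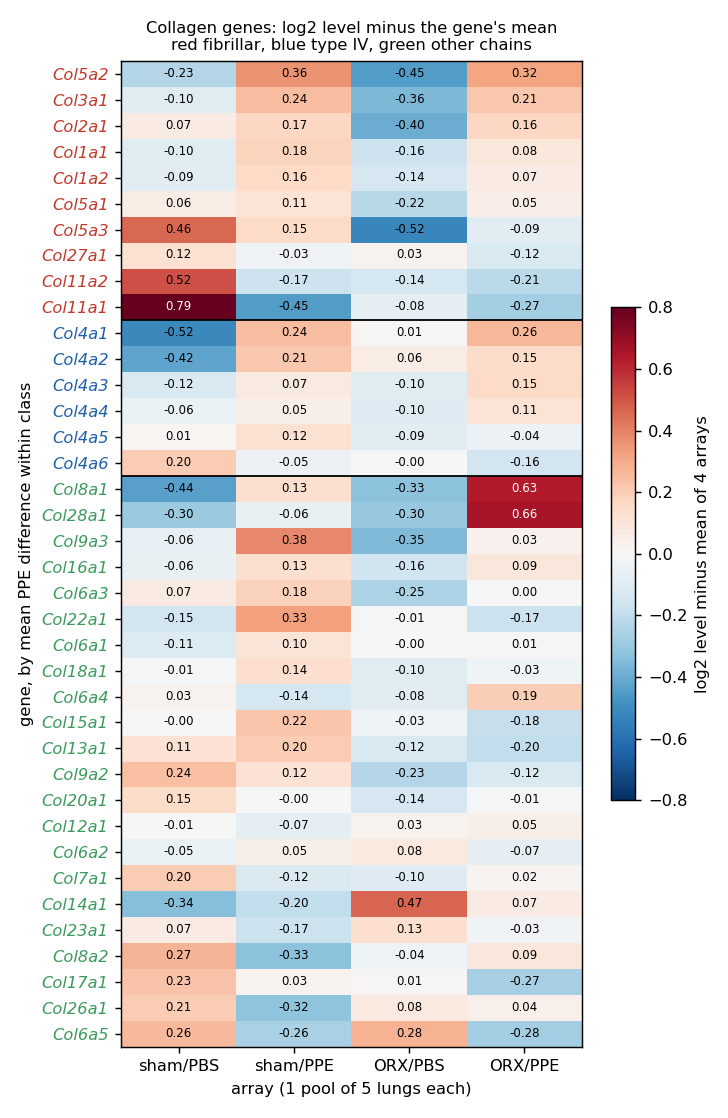
Each row is 1 of the 38 collagen genes well above background on all 4 arrays and each column 1 array; colour and number give the log2 level minus the gene's mean over the 4 arrays. Fibrillar chains are named in red, type IV in blue and other chains in green. Col5a2 and Col3a1 are higher in both PPE columns than in both PBS columns, Col4a1 and Col4a2 are lowest on sham/PBS, and Col11a1 and Col11a2 are highest there.

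By their brightest probes, the chains of the main lung fibrils were higher on the PPE array in both surgery groups, by modest amounts. Other measured probes of Col1a2, Col3a1 and Col5a2 were lower with PPE in sham mice, as described below. Col1a1, the larger part of type I collagen, had a level of 2.93 on the sham/PBS array and 3.21 on sham/PPE. After ORX the levels were 2.87 with PBS and 3.11 with PPE. Both PPE arrays thus lay above both PBS arrays. Col1a2, its partner chain, had levels of 4.94, 5.18, 4.89 and 5.09 in that order of the 4 arrays, which all later lists of 4 levels keep, and the same arrangement. Col3a1, the only chain of type III, had levels of 4.45, 4.79, 4.19 and 4.76, and its PPE difference was 0.34 in sham and 0.57 in ORX mice. Col5a2, a chain of the type V collagen found within type I fibrils, had levels of -1.23, -0.63, -1.44 and -0.67. Its PPE differences of 0.60 and 0.76 correspond to 1.51-fold and 1.70-fold, and it was the only collagen gene at least 1.5-fold higher in both surgery groups, as were 0.487% of all genes. Col5a1, the other major type V chain, was flatter, with levels of 1.14, 1.19, 0.85 and 1.13.

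Col1a1 was spotted repeatedly, so the scatter of the spots can be set beside its difference. For 2 probes with 10 spots each, the PPE difference was 0.28 ± 0.10 and 0.29 ± 0.09 in sham mice and 0.25 ± 0.09 and 0.29 ± 0.11 in ORX mice (SD of a difference between spots, n = 10 spots on each array). Each of these PPE differences was larger than its spot SD. The ORX differences of the same probes ran from -0.10 to -0.049, with SDs of 0.0902 to 0.106. Another probe of Col1a1 gave 0.28 in sham but 1.02 in ORX mice.

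**Figure D2:**
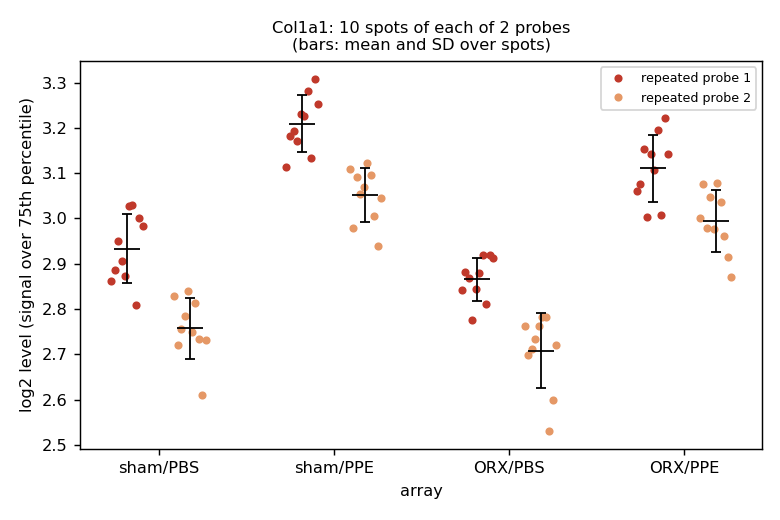
Points are the log2 levels of single spots of Col1a1 on each of the 4 arrays, 10 spots for each of 2 probes, with bars for the mean and SD over spots. For both probes the means of sham/PPE and ORX/PPE lie above those of sham/PBS and ORX/PBS, and for 1 of the 2 probes the lowest ORX/PPE spot (3.00) lies below the highest sham/PBS spot (3.03).

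The sequences upstream of 3 chains are shown to let their starts be compared. By their brightest probes these chains were higher with PPE in both surgery groups. The sequences are RefSeq's, on GRCm38.p6, and cover the 250 bases before the gene's start. Capitals mark 3 common promoter motifs on either strand, which share no base here. The first is CCAAT. Another is GGGCGG, read as CCGCCC on the other strand. The last is TATAAA.
Col1a2 (chr6:4505368-4505617, plus strand): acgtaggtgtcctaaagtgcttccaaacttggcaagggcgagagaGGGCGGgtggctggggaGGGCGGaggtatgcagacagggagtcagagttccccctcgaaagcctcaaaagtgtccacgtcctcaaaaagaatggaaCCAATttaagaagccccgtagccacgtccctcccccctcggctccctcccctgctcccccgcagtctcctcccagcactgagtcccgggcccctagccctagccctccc
Col3a1 (chr1:45311288-45311537, plus strand): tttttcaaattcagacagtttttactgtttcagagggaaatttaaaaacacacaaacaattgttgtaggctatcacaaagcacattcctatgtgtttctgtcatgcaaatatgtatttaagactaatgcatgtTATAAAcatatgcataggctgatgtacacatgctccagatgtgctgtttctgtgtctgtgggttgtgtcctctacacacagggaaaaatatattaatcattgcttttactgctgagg
Col8a1 (chr16:57754738-57754987, minus strand): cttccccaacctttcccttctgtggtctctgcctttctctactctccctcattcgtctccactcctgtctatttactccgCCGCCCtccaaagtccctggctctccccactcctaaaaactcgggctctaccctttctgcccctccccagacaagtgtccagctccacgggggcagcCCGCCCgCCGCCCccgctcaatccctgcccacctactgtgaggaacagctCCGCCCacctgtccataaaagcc
The Col1a2 window held 1 CCAAT and 2 GGGCGG, that of Col3a1 held 1 TATAAA, and that of Col8a1 held 4 GGGCGG. Over all 32851 windows of the table, 33.8% held a CCAAT, 32.7% a GGGCGG and 12.4% a TATAAA. Windows were given for 35 of the 44 collagen genes, 38 windows in all, of which 13, 22 and 5 held the 3 motifs. These matches describe letters and say nothing about the factors that bind such motifs.

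Of the remaining measured fibrillar chains, only Col2a1 had both PPE arrays above both PBS arrays. Col11a1, a chain of the thin fibrils of cartilage that is also made in developing tissue, had levels of -4.55, -5.79, -5.42 and -5.61. It stood highest on sham/PBS, and its PPE difference in sham mice of -1.24 was the only one past 2-fold among the collagen genes in any of the 4 comparisons. Another Col11a1 probe that was measured on all arrays went the other way, by 0.56, and under normexp, another background correction, the difference was -0.11. Col11a2 likewise stood highest on sham/PBS, with levels of -4.06, -4.75, -4.72 and -4.79, and its PPE difference in sham mice of -0.68 was -0.11 under normexp. Col5a3, the rarer type V chain, had levels of -1.34, -1.64, -2.32 and -1.89, lowest on ORX/PBS. Col2a1, the main fibrillar chain of cartilage, had levels of 0.60, 0.70, 0.14 and 0.70 and so stood low on ORX/PBS alone. Of 12 cartilage markers, Acan, Matn1, Matn3, Snorc and Ucma were not well above background on any array, and the summed signal of the list was between 17.9 and 21.2 times an array's 75th percentile. Col27a1 had the narrowest range of this class, from -2.83 to -2.59.

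Some genes were also read by probes that carry no curated RefSeq mRNA accession (an NM number) in the files, and several of these gave another pattern. Of the 91 probes, 24 carried none, of which 3 have a RefSeq model mRNA accession. The 2 such probes of Col3a1 differed by -1.08 and -1.12 with PPE in sham mice, where its NM probe gave 0.34. For Col1a2 the 2 measured ones gave -0.89 and -0.70 against 0.25, and for Col5a2 the measured one gave -0.69 against 0.60. With the mean over all probes of a gene, the PPE difference in sham mice was therefore -0.62 for Col3a1, -0.45 for Col1a2 and -0.046 for Col5a2. In ORX mice it was 0.46, 0.025 and 0.49. Each of these 5 probes was brightest on sham/PBS, and in ORX mice their PPE differences lay between -0.16 and 0.54. Col6a3 had 1 such probe at -0.56, while its 2 NM probes gave 0.11 and -0.34.

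Over the 11 collagen genes with measured probes of both kinds, the probes without an NM accession were lower than the others in 8 for PPE in sham, with a median gap of -0.36. Over 4037 other genes with both kinds the median gap was -0.11, and it was below 0 in 63.6% of them. For PPE in ORX the median gaps were -0.14 and 0.076. These probes were looked at after their values were seen, no annotation of the files' build was used to place them in exons or introns, and the cause was not tested.

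**Figure D3:**
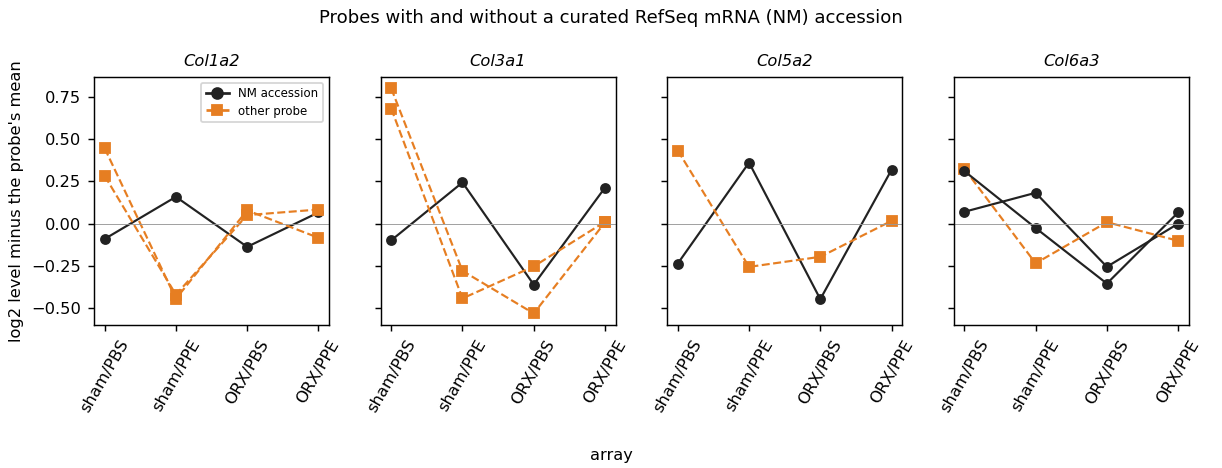
Lines join the log2 levels of 1 probe over the 4 arrays, minus the probe's mean, for 4 collagen genes; black circles are probes with a curated RefSeq mRNA (NM) accession and orange squares probes without one. The orange probes of Col1a2, Col3a1 and Col5a2 start high on sham/PBS, where the black probes of the same genes are below their mean.

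Among the basement membrane chains, the common pair stood apart from the 4 tissue-restricted ones when each gene was read by its brightest probe. Col4a1 and Col4a2, which combine as the ubiquitous type IV protomer, were lowest on sham/PBS. Col4a1 had levels of 2.89, 3.65, 3.41 and 3.67, and Col4a2 had levels of 2.59, 3.22, 3.07 and 3.16. For Col4a1 the other 3 arrays lay between 3.41 and 3.67, so the PPE difference was 0.76 in sham and 0.25 in ORX mice, and the ORX difference was 0.52 under PBS and 0.018 under PPE. Both large values rest on the same sham/PBS array and are not independent of each other.

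The pair are neighbours on chromosome 8 of GRCm38.p6, on opposite strands. In RefSeq's windows the start of Col4a2 is at base 11312805 and that of Col4a1 at base 11312826, so their transcribed starts overlap by 22 bases. Those bases are shown in capitals, on the Col4a2 strand, because the 2 genes that share them had the highest PPE differences in sham mice of the 38 collagen genes measured on both arrays.
Col4a1 and Col4a2 (chr8:11312801-11312830, plus strand): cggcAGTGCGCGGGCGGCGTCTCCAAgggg
Col4a5 and Col4a6 also run away from each other, on chromosome X, with starts 1343 bases apart.

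The chains of the alveolar and kidney type IV networks were flatter by their brightest probes. Col4a3 had levels of 0.79, 0.99, 0.82 and 1.07, and Col4a4, its partner in alveolar basement membrane, 2.06, 2.16, 2.01 and 2.22. Both were slightly higher on the PPE arrays than on the PBS arrays, by 0.10 to 0.25. Col4a5, another chain of that protomer, had levels of 1.78, 1.88, 1.67 and 1.72. Its other measured probe had -1.45, -1.15, -1.10 and -0.99, lowest on sham/PBS like the common pair. Col4a6 had levels of 0.59, 0.34, 0.38 and 0.23, lower with PPE in both surgery groups.

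Type VI collagen forms beaded filaments around cells, and its 3 main chains differed little between arrays by their brightest probes. Col6a1 had levels of 3.70, 3.91, 3.81 and 3.82. Col6a2 had levels of 0.55, 0.65, 0.68 and 0.53, and Col6a3 had 2.91, 3.02, 2.58 and 2.84. By brightest probe the largest difference among these 3 genes was -0.32, for Col6a3 under ORX with PBS. Other measured Col6a3 probes gave -0.66 and -0.32 there, and -0.34 and -0.56 with PPE in sham mice. Another Col6a2 probe gave -0.35 with PPE in ORX mice. The rarer Col6a5 was lower on both PPE arrays, with levels of -4.28, -4.80, -4.26 and -4.82, but its PPE difference in sham mice of -0.52 was 0.00011 under normexp. Col6a4 had -4.48, -4.65, -4.59 and -4.31.

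Type VIII collagen, a short-chain network collagen of vessel walls, has 2 chains, whose PPE differences had opposite signs in sham mice. Col8a1 had levels of 0.72, 1.28, 0.83 and 1.79. It was higher on both PPE arrays, by 0.56 in sham and 0.96 in ORX mice. Col8a2 had levels of -0.0023, -0.60, -0.32 and -0.18, lowest on sham/PPE, and its PPE difference was -0.60 in sham and 0.13 in ORX mice. Col28a1, a beaded collagen known from peripheral nerve, had levels of -5.69, -5.45, -5.70 and -4.73 and stood apart on ORX/PPE. Its PPE difference in ORX mice was 0.96, and 0.40 under normexp. Its ORX difference under PPE of 0.72 was 0.023 there.

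Collagens that sit on fibril surfaces showed no shared pattern. Col14a1, which links fibrils to other matrix proteins and was read by the single probe shown above, had levels of -3.23, -3.09, -2.42 and -2.82. It was higher on both ORX arrays, by 0.81 under PBS (0.48 under normexp) and 0.26 under PPE. Col12a1, its relative, spanned only 0.23 to 0.35. Col22a1, found at tissue junctions, had levels of -4.99, -4.50, -4.84 and -5.00, highest on sham/PPE, and its other probe did not follow, with a difference of -0.032 in sham mice. Col9a3, a chain that decorates cartilage fibrils, had levels of -5.56, -5.11, -5.85 and -5.46, while Col9a2 had -3.97, -4.09, -4.44 and -4.33. Col16a1 had 2.28, 2.47, 2.17 and 2.42. Of the epithelial and membrane-bound chains, Col17a1, a hemidesmosome protein, had levels of -2.89, -3.09, -3.11 and -3.39, Col13a1 had 0.88, 0.97, 0.65 and 0.57, and Col23a1 had -0.20, -0.44, -0.13 and -0.30. The secreted Col26a1 had levels of -2.87, -3.40, -3.00 and -3.04, lowest on sham/PPE. Its other measured probes gave PPE differences in sham mice of -0.50 and 0.24, against -0.53 for the brightest probe. The basement membrane zone chains Col15a1 and Col18a1 had levels of -5.18, -4.95, -5.20 and -5.35, and of 1.09, 1.23, 0.998 and 1.06.

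Counted over the family, few collagen genes passed 2-fold. For PPE in sham mice, 0 were higher and 1 (Col11a1) was lower. Of the 20859 genes tested there, 1.26% were higher, 0.451% lower and 1.71% past 2-fold either way. For PPE in ORX mice the count was 0, against 0.681% of genes higher, 0.369% lower and 1.05% in all. For ORX under PBS it was 0, against 0.585% higher, 1.24% lower and 1.83% in all. For ORX under PPE it was 0, against 0.322% higher, 1.41% lower and 1.74% in all. At 1.5-fold, counted over genes measured on both arrays, PPE in sham mice had 3 higher (Col4a1, Col4a2 and Col5a2) against 3.93% of genes and 3 lower (Col8a2, Col11a1 and Col11a2) against 3.43%. PPE in ORX mice had 3 higher (Col5a2, Col8a1 and Col28a1) against 2.59% of genes, and 0 lower against 1.89%.

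The medians were small. Over the collagen genes measured on both arrays the median PPE difference was 0.10 in sham mice (38 genes) and 0.12 in ORX mice (40 genes), beside 0.018 and 0.0011 over all genes and 0.10 and 0.0062 over 12 reference genes. By class, the PPE medians in sham and in ORX mice were 0.075 and 0.26 for fibrillar chains, 0.15 and 0.15 for type IV, and 0.095 and 0.077 for other chains. PPE gave a higher value in both surgery groups for 18 of the 38 genes measured on all arrays, where 24.8% of all genes did, and a lower value in both for 8, where 22.3% did. The 18 comprised 6 of 10 fibrillar chains, 5 of 6 type IV chains and 7 of 22 others. With the mean of probes, Col1a2, Col3a1, Col5a2 and Col6a3 of these 18 were lower with PPE in sham mice. Of 26 other measured collagen probes, 14 shared the sign of the gene's brightest probe with PPE in sham and 20 in ORX mice.

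**Figure D4:**
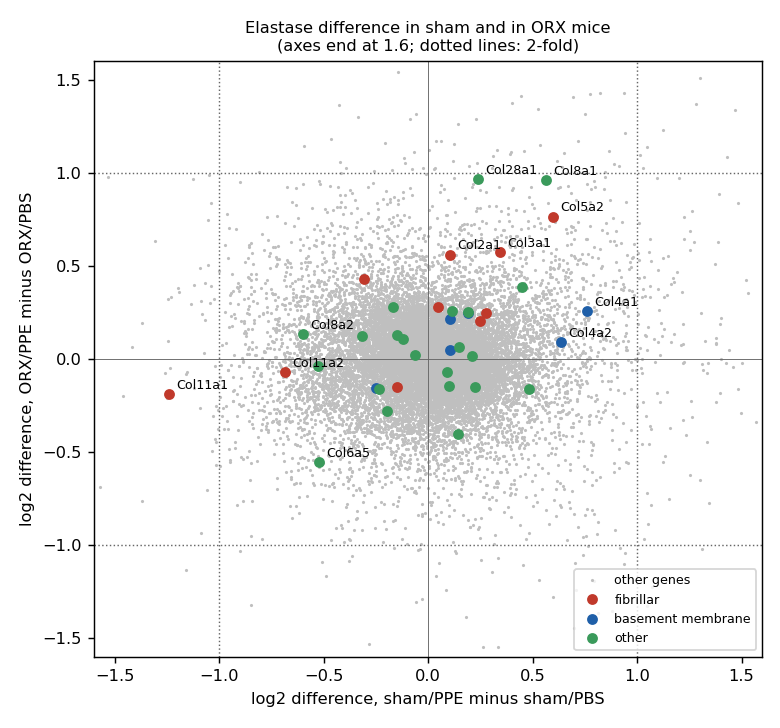
Each point is 1 gene measured on all arrays compared, with its PPE difference in sham mice on the x axis and in ORX mice on the y axis, both in log2 units; grey points are all other genes within the axes. Col5a2, Col3a1 and Col8a1 lie at the upper right, Col4a1 and Col4a2 to the right with small values in ORX mice, and only Col11a1 lies beyond a 2-fold line.

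Between sham-operated and ORX mice given the same agent, the class median farthest from 0 was that of the fibrillar chains under PBS. All 10 measured fibrillar chains were lower there on the ORX array, as were 10280 of 19958 measured genes. With median scaling 9 of the chains were, since Col1a2 was at 0.013. The fibrillar median was -0.27, beside -0.0093 over all genes. The 3 at least 1.5-fold lower were Col5a3 (-0.98), Col11a1 (-0.87) and Col11a2 (-0.66), against 4.79% of genes, of which the type XI chains gave -0.39 and -0.36 under normexp, and Col14a1 (0.81) was the only one as far in the other direction, against 3.20%. Col9a2 and Col2a1 followed at -0.47 and -0.46. The fibrillar median under PBS and the fibrillar PPE median of 0.26 in ORX mice share the ORX/PBS array and are not independent. Under PPE the fibrillar median was -0.051, with 9 of 10 below 0, as were 10339 of 19603 measured genes. Col28a1 (0.72) was the only collagen gene past 1.5-fold there, against 1.86% of genes that high and 3.58% as far in the other direction. With the mean of probes Col1a1 (0.056), Col1a2 (0.26), Col3a1 (0.24), Col5a2 (0.11) and Col27a1 (0.10) were above 0 under PPE. Quantile normalization put Col2a1 (0.0097) and Col3a1 (0.0083) above 0 there. The lowest under PPE were Col22a1 (-0.50), Col15a1 (-0.40) and Col13a1 (-0.40). Under both agents 20 of 38 genes were lower on the ORX array and 6 higher, where 29.0% and 25.4% of all genes were. Of 26 other measured collagen probes, 21 shared the sign of the gene's brightest probe for ORX under PBS and 11 under PPE. By their brightest probes the type I chains differed by at most -0.10 under either agent. Other measured Col1a1 probes gave -0.048 and -0.42 under PBS and -0.057 and 0.32 under PPE. Other measured Col1a2 probes gave -0.37 and -0.23 under PBS and 0.36 and 0.50 under PPE. Fewer cells of a type and less RNA per cell cannot be told apart in such whole-lung RNA.

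**Figure D5:**
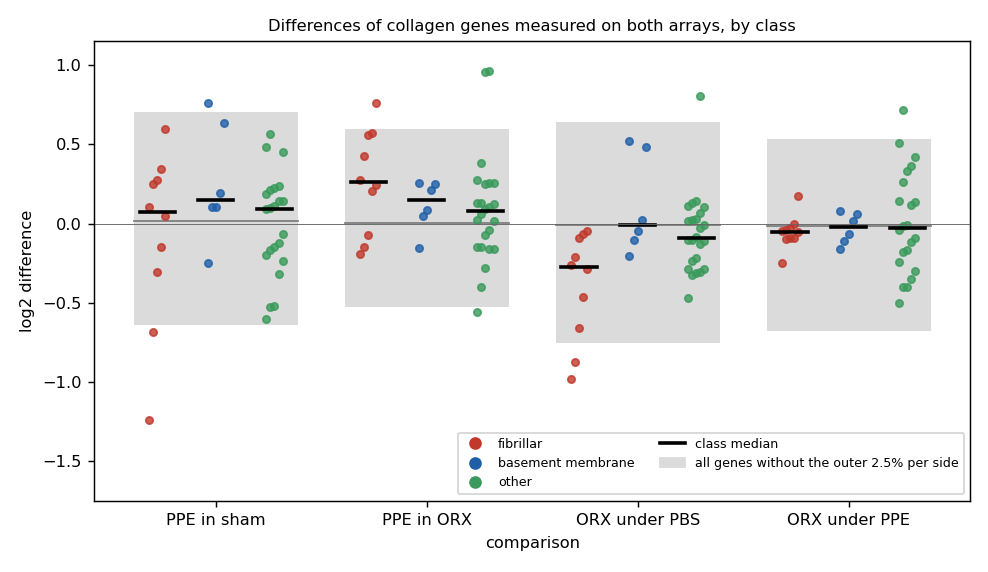
Points are log2 differences of collagen genes measured on both arrays, in 4 comparisons and 3 classes; black bars are class medians, grey lines the median of all genes and grey boxes the range of all genes without the outer 2.5% on each side. Most points lie inside the grey boxes, and the red fibrillar points of ORX under PBS all lie below 0, except that with median scaling, which is not drawn, Col1a2 was at 0.013.

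The design allows 1 fit with a spare degree of freedom, which assumes that surgery and agent add up with no interaction. In it, limma called 0 of the 40 collagen genes fitted and 0 of 20656 genes (0.0%) at an adjusted p under 0.05, for PPE and for ORX alike. At an unadjusted p under 0.05 the PPE term held 5 collagen genes, where 5.62% of all genes passed, and the ORX term held 1, where 7.93% did. By brightest probe the 5 were Col5a2, Col8a1, Col3a1 and Col9a3, higher with PPE, and Col6a5, lower. With the mean of probes, Col3a1 (-0.62) and Col5a2 (-0.046) were lower with PPE in sham mice but not in ORX mice. Under normexp Col6a5 was at 0.00011 in sham mice. These counts were 8 and 4 under normexp, where all 8 were higher, 8 and 2 with median scaling, 4 and 0 with quantile normalization and the deposited table, and 5 and 3 with the mean of probes. Col5a2 had the lowest p of them, with an effect of 0.68 ± 0.13 (SE), an unadjusted limma p of 0.00804 and an adjusted p of 0.751. The gene of the ORX term was Col14a1, with an effect of 0.53 ± 0.19 (SE) and an adjusted limma p of 0.63.

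The genes that make, cut, bind and sense collagen were described from fixed lists. Enzymes and chaperones of chain folding, such as Serpinh1 (the collagen chaperone), P4ha1 (prolyl hydroxylation) and Plod2 (lysyl hydroxylation), differed little with PPE. The 24 genes had median PPE differences of 0.059 in sham and -0.11 in ORX mice, and 0 of them passed 1.5-fold in any comparison. For ORX the medians were 0.014 under PBS and -0.10 under PPE, with 19 of the 24 below 0 under PPE. Serpinh1 had levels of 4.15, 4.20, 3.89 and 3.89, and its ORX differences were -0.26 under PBS and -0.31 under PPE. Those of P4ha1 were -0.20 and -0.29. In the list for propeptide cleavage and crosslinking, 2 of 12 were past 1.5-fold with PPE in sham mice: Lox, the enzyme that crosslinks collagen and elastin, and Fn1, the fibronectin that collagen assembles on. Lox had levels of 1.61, 2.37, 1.90 and 2.54, and so was higher by 0.76 and 0.64. Fn1 had levels of 4.33, 5.07, 4.63 and 5.06.

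Most enzymes that degrade collagen were higher with PPE in sham mice. All 8 measured of 9 were higher there, with a median of 0.79, and 5 passed 1.5-fold. Mmp8, the neutrophil collagenase, had levels of -2.29, -0.0081, -1.45 and -0.85, a difference of 2.28 in sham and 0.60 in ORX mice. Mmp9, a gelatinase, was higher by 1.26 in sham and differed by -0.23 in ORX mice. Ctsk, the collagen-cutting cathepsin K, was higher by 0.79 and 0.95, and Mmp2, the other gelatinase, by 0.78 and 0.55. In ORX mice the list's median was 0.079, with 4 of 8 above 0. Neutrophil markers, of which Mmp8 is one, had a summed signal of 89.7, 182, 106 and 125 times the 75th percentile on the 4 arrays, with 7 of 8 higher with PPE in sham mice, and their part in the enzyme values was not tested.

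Of the fibril-binding proteins, 3 of 18 passed 1.5-fold with PPE in sham mice, namely Comp, Tnc and Thbs2. Comp, which bridges fibrils in cartilage and tendon, was high on sham/PPE alone, at -3.14 against -5.42 to -5.21. Tnc, the tenascin of injured tissue, was higher with PPE by 0.95 and 0.84, and Thbs2 by 0.70 and 0.69. The list's medians were 0.30 in sham and -0.013 in ORX mice. In the list of collagen receptors the medians were 0.037 and 0.15, with 1 of 12 past 1.5-fold in sham mice, the leukocyte receptor Lair1 (0.66). The other basement membrane proteins had medians of 0.16 and 0.12, and 0 of 17 passed 1.5-fold with PPE in either surgery group, while Lama1, a laminin chain, had ORX differences of -1.32 under PBS and -0.85 under PPE. In the list of the TGF-beta pathway, which drives collagen transcription, the medians were 0.13 and 0.12. There Ltbp2, a binding protein of elastic microfibrils, was higher with PPE by 0.76 and 0.94, and Ccn2, a matricellular growth factor, was higher on the ORX arrays by 0.60 and 0.71.

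Other cell markers moved between these arrays too. The summed signal of 14 fibroblast markers was 244, 281, 256 and 255 times the 75th percentile, and that of all collagen genes 127, 153, 124 and 148. In that list the median PPE difference was 0.078 in sham and -0.047 in ORX mice, and Mfap5, a microfibril protein, was higher by 0.98 and 0.62. All 8 markers of smooth muscle were lower on the PPE array in both surgery groups, with medians of -0.30 and -0.24. The 10 heart muscle markers summed to 68.7, 145, 55.6 and 27.8, and the 8 fat markers to 31.4, 49.8, 38.6 and 26.9, both highest on sham/PPE and lowest on ORX/PPE. The part of these cell types in the collagen values was not tested.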

How the data were processed

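RNA was extracted with TRIzol and a column and labelled with Cy3, per the labels' protocols. The authors' deposited scanner files, of array design 074809, hold processed signals, a linear intensity after background subtraction. Per the file headers they came from Feature Extraction 10.7.1.1, while the submitters' processing notes name 9.5.1.1. Other columns hold marks of 0 or 1, per the file headers. The deposited value table also holds linear intensity values. Its log2 values lay a median of 0.00364 from those obtained here by quantile normalization.

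Control spots and outlier spots (31 to 54 of 59305) were left out, spots of a probe averaged and log2 values set relative to each array's 75th percentile over spots. A gene took its brightest probe. A gene dim on 1 of both arrays gave a bound. The 2-fold share counts genes above background on at least 1 of both arrays. Of the 91 probes, 67 were named by accession through RefSeq's GRCm38.p6 table, 0 of them as another gene, and all 44 symbols were in it. limma 3.58.1 in R 4.3.3 fitted surgery and agent to 20656 genes (above background on 2 or more arrays), with 1 residual degree of freedom and Benjamini-Hochberg adjustment, and was tested on simulated data.

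All collagen genes could be named. Values on every array are given for the measured genes of types I, III, IV and VI, for genes past 2-fold and for the 5 highest and lowest differences of each comparison, and up to 4 genes per direction from each list. The members, the classes and the 22 lists (237 genes, with 1 symbol, Muc16, not matched) were chosen with earlier results of these data known. The number of arrays limits the precision. Lists not named in the report are given under other observations.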

Additional observations from a re-analysis of the deposited data

Results flagged for a closer look

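In 3 collagen genes the PPE difference had opposite signs in sham and ORX mice and the 2 values lay at least 1.5-fold apart, a distance chosen after the values were seen; with 1 array a group the difference between them was not tested. For Col5a3 the PPE difference was -0.31 in sham and 0.43 in ORX mice, a gap of -0.73. For Col8a2 the values were -0.60 and 0.13, a gap of -0.73. For Col22a1 they were 0.48 and -0.16, a gap of 0.65. Its value in ORX mice was above 0 under normexp (0.094) and with the mean of probes (0.20). The other measured Col22a1 probe gave -0.032 in sham and 0.57 in ORX mice.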

How the results depend on the processing

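No paired analysis was possible because each group has 1 array and no replicate number. For the same reason no replicate could be left out. The count of collagen genes past 2-fold for PPE in sham mice was 0 with the normexp background correction, 0 with the mean of a gene's probes, and 3 with no filter on dim probes. Without that filter 3 also passed for ORX under PPE. At 1.5-fold the counts were 6 for PPE in sham, 3 for PPE in ORX, 4 for ORX under PBS and 1 for ORX under PPE. The median collagen difference for PPE in sham mice was 0.17 with median scaling and -0.038 with the mean of probes, where Col1a2, Col3a1, Col5a2, Col6a3 and Col13a1 changed sign. For ORX under PBS it was -0.16 with normexp and -0.042 with median scaling. For ORX under PPE it was 0.016 with the mean of probes, and 7 genes changed sign. Over all genes, normexp left 58 higher and 9 lower past 2-fold for PPE in sham mice, against 262 and 94, and 18 and 8 for PPE in ORX, against 144 and 78. For ORX under PBS it left 28 higher and 68 lower, against 124 and 263, and for ORX under PPE 4 and 90, against 67 and 294. The additive fit called 0 collagen genes for either term in all 6 settings run. Quantile normalization and the deposited table moved no count of the 4 comparisons by over 1.5 times and no median beyond the spot scatter, and changed the sign of 2 genes each for ORX under PBS (Col15a1 and Col28a1) and ORX under PPE (Col2a1 and Col3a1). Median scaling changed the sign of 4 for ORX under PBS. Under normexp the sign changed for 3 genes with PPE in sham and 6 in ORX mice, and for 4 genes with ORX under PBS and 3 under PPE. With Col7a1, Col15a1 and Col18a1 counted as basement membrane chains, 1 of 8 class medians moved beyond the spot scatter. Low signal over background limits the differences of Col11a1, Col11a2 and Col28a1, which moved by over 1.5 times under normexp as given above.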

Other observations

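Markers of other cell types on the same arrays gave mostly small values. The median PPE differences in sham and in ORX mice were 0.066 and -0.14 for alveolar type 1 cells, 0.16 and 0.12 for alveolar type 2 cells, -0.052 and -0.067 for endothelium, -0.092 and -0.32 for mesothelium and 0.14 and -0.056 for nerve sheath. For bone they were 0.031 and 0.19, for basal cells 0.30 and -0.22, and for skin and hair 0.0077 and 0.023. For cartilage they were -0.14 and 0.028, for fat 0.55 and -0.37, for heart muscle 0.70 and -0.97, and for neutrophils 1.68 and 0.32.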
